A study of Homo sapiens with 26 samples.

Results

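CDC40, TAF6, CNPY4, OSTC, RNF169, CAMKMT and RIOK2 are human genes whose transcription starts lay beside high-scoring binding peaks of the zinc finger protein ZBTB24 in HCT116 cells, a colorectal cancer cell line. They were chosen by the scores of their ZBTB24 promoter peaks, and each had to have a FLAG-ZBTB24 peak with its midpoint within 1000 bp of a start that carries its name. All 7 of 26313 named genes in the authors' assembled annotation met that rule, with 6 distinct peaks, because TAF6 and CNPY4 shared 1. A further 975 named genes also had such a promoter peak. They include WASF1 and PREPL, whose peaks are those of CDC40 and CAMKMT, so the 975 are not wholly apart from the 7.

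The ChIP-seq libraries, made with a FLAG antibody, came from 3 clonal HCT116 lines that stably express FLAG-ZBTB24, from 2 lines with FLAG-DNMT3B and from 2 lines with the FLAG tag alone, with a matching input library for each. RNA-seq covered 3 shZBTB24 libraries (a hairpin against ZBTB24) against 3 shNT libraries (a hairpin with no target), 2 FLAG-ZBTB24 libraries against 2 with the FLAG tag alone, and 1 DNMT3B knockout library (HCT116 3BKO) against 1 wild-type library with neither tag nor hairpin. All hairpin and FLAG lines were made by lentiviral infection and puromycin selection, and each FLAG line is a clone of 1 cell, so the FLAG libraries of a group are separate clones and their spread includes differences between clones. Whether the hairpin libraries came from separate cultures is not said, so their p-values measure only the spread between libraries, which may be technical. The deposited tables hold 1 value per group and the peak lists 1 score per peak, so no value below has a standard deviation.

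ZBTB24 belongs to the BTB zinc finger family, which bind DNA through a row of zinc fingers. Inherited loss of ZBTB24 or of the DNA methyltransferase DNMT3B causes ICF syndrome, an immunodeficiency in which repeat DNA near centromeres loses methylation. DNMT3B adds methyl groups to CpG sites, and is known to act in the bodies of transcribed genes. Promoters that drive genes on both strands, head to head, are common in human genomes and can place 1 binding event beside the starts of both.

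The series itself gave little check of the perturbations. ZBTB24 was not among the 1965 loci listed for the knockdown, while the locus that joins ZBTB24 and MICAL1 stood at 155 FPKM with FLAG-ZBTB24 and 17.8 FPKM with the tag alone in the authors' deposited table, a log2 fold change of 3.12 with q = 0.0192. FPKM is a count of fragments scaled to transcript length and to the library's mapped fragments. The knockout table has 2243 rows labelled as the knockout, all higher than wild type, and 1112 rows under a label, DNMT3BKOshZB, that matches no sample given here, all lower than wild type. Label and direction therefore cannot be told apart, and a gene lower in the knockout could be listed only under the second label. DNMT3B was listed there, at 6.46 FPKM under the label DNMT3BKOshZB and 21.1 FPKM in wild type in the authors' deposited table, with a log2 fold change of -1.71 and q = 0.676. Of 8 epithelial markers, 4 were listed under that label. KRT8 was at 297 FPKM under it and 839 FPKM in wild type, and KRT18 at 329 FPKM under it and 739 FPKM in wild type in the authors' deposited table. EPCAM was at 76.6 FPKM under it and 179 FPKM in wild type, and CDH1 at 6.10 FPKM under it and 27.3 FPKM in wild type in the authors' deposited table, and none of the 4 had a q under 0.05. Of 6 markers of other cell types, VIM alone was listed, and PTPRC, COL1A1, PECAM1, CD3E and HBB were in no table.

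The promoter sequences were searched for short words that several of these genes share, since the peaks lie over them, and the matches are shown before the peak values. Promoters here are RefSeq sequences of the GRCh38.p14 build, from 250 bases before a gene's start to 50 after it, and 6 of the 7 genes matched by symbol. CAMKMT had no entry. The search laid down as the main one, for 8-base words on both strands, gave 11 words tied at 3 of 6 genes. A listed alternative with 7 bases gave a single leader, AGGACCT, which reads AGGTCCT on the other strand. It was found in 5 of 6 genes, namely CDC40, TAF6, CNPY4, OSTC and RIOK2, and not in the RNF169 window. TAF6 and CNPY4 start head to head and share sequence, so these are 4 separate loci. Each match is given below 5′ to 3′ in the direction that reads the word in capitals, with 10 bases on each side and its GRCh38 position.
CDC40, centre 212 bp upstream of the start (chr6:110180202-110180228): tataacatttAGGACCTagttgactaa
CDC40, centre 42 bp upstream (chr6:110180372-110180398): gcaatctgtcAGGACCTgggagcctct
TAF6, centre 187 bp upstream, also the CNPY4 match at 89 bp upstream of its own start (chr7:100119532-100119558): cccggctgccAGGACCTtcaagaggcg
TAF6, centre 16 bp upstream (chr7:100119361-100119387): aggctctgccAGGACCTgctcccacga
OSTC, centre 224 bp upstream (chr4:108650362-108650388): tgtaccttcaAGGACCTgcgggacttc
RIOK2, centre 73 bp upstream (chr5:97183307-97183333): actattaacaAGGACCTatactaagac

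All 6 matches lay upstream of a start, between 16 and 224 bp from it. CDC40 and TAF6 each held the word in 2 places, on opposite strands. Around the word, both TAF6 matches had the 12 bases CTGCCAGGACCT in common. The CDC40, OSTC and RIOK2 matches did not hold those 12 bases. CAMKMT itself could not be searched, but PREPL, which starts head to head with it 42 bp away in the authors' annotation, had the word in 2 places in the first of its 3 promoters, on the same strand as PREPL. These matches are printed because the CAMKMT peak covers this shared start.
PREPL, centre 88 bp upstream of its start (chr2:44361937-44361963): gtcccctgccAGGACCTgccaacttct
PREPL, centre 63 bp upstream (chr2:44361912-44361938): cttccctgtcAGGACCTgtgacgcccg

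The PREPL match at 88 bp held the same 12 bases as both TAF6 matches. WASF1, the gene head to head with CDC40, had no match in its own promoter. The whole promoters with a match follow for 4 loci, on the strand of the gene, with the word and its reverse complement in capitals, so that the bases between the matches and the start can be read. CNPY4 is left out because its promoter overlaps that of TAF6.
CDC40 (chr6:110180177-110180476, plus strand): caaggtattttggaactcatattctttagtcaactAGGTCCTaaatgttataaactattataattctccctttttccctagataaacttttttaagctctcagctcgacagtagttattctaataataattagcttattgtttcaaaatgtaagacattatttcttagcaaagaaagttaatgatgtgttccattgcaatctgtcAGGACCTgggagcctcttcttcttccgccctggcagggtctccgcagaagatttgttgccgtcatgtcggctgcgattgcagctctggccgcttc
TAF6 (chr7:100119309-100119608, minus strand): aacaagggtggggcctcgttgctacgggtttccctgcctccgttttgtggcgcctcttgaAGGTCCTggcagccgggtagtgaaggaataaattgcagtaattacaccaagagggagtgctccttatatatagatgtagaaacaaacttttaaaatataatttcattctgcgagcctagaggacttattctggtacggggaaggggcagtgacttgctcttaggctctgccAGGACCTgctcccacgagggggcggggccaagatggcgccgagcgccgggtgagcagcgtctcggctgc
OSTC (chr4:108650349-108650648, plus strand): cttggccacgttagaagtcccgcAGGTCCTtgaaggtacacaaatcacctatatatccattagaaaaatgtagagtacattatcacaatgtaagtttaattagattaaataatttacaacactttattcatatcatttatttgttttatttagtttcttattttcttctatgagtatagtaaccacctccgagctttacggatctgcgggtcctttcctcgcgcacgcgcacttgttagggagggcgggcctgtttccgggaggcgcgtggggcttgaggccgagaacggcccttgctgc
RIOK2 (chr5:97183198-97183497, minus strand): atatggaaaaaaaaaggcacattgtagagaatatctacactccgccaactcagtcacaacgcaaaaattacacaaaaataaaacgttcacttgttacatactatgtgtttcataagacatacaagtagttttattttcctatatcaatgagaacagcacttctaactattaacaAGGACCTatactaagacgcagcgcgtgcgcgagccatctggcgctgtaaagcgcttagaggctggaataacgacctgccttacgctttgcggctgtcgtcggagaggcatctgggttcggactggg

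These promoters were poorer in G and C than most. GC content was 39.3% for CDC40, 43.0% for RIOK2, 43.7% for OSTC, 51.0% for CNPY4, 51.7% for RNF169 and 54.3% for the first of 3 TAF6 promoters. The median was 47.3% over these 6 genes, 62.3% over 698 other genes with a ZBTB24 promoter peak and 62.3% over all 16172 named genes with a promoter sequence. Of the 6, 5 lay below the lower quartile of all promoters, which was 52.7%. Among the 698 other genes with a promoter peak and a sequence, the 50 with the highest scores had a median of 63.8%.

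The 7-base word was then counted in promoters that had no part in choosing it. It was found in 99 of 698 other genes with a ZBTB24 promoter peak (14.2%, 95% Wilson interval 11.8% to 17.0%) and in 684 of 15468 genes without one (4.42%, 4.11% to 4.76%). Peak midpoints were placed by the start in the authors' annotation, which was not joined to the build of the sequences. Where the midpoint lay from 250 bp upstream to 50 bp downstream of that start, 48 of 199 genes held the word (24.1%, 18.7% to 30.5%). Where the midpoint lay outside that span, 51 of 499 genes did (10.2%, 7.86% to 13.2%). Among these 698 other genes with a peak, the 50 with the highest scores held the word in 18.0%, the next 150 in 17.3% and all the rest in 12.9%, with intervals that overlap. Score bands given below for head-to-head starts, DNMT3B peaks and expression are cut from all 975 other genes, so their 50 are not the same genes. The median peak score was 8.90 with the word and 8.45 without it. Intervals cover counting error only, and no test was run.

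Counting only the first promoter of each gene, all 7-base words in at least 20 other genes with a peak were ranked by the ratio of their shares in genes with and without a peak. AGGACCT ranked 1 of 3386, with a ratio of 3.45, and the next word, ACCTTAG, had 2.52. The 7 genes were left out of this ranking, which was run after the word was known. In promoters under 55% GC, the word was in 8.38% of genes with a peak and 3.80% of genes without. At 55% GC or more these shares were 12.4% and 3.12%. The longer word CTGCCAGGACCT was counted in any promoter of a gene, not the first only. It was rarer, in 5 of 698 other genes with a peak (0.716%, 0.306% to 1.67%) and in 4 of 15468 without (0.0259%, 0.0101% to 0.0665%). The 5 genes were ARID5B, ARL11, ATXN7, IPMK and PREPL, named after the search. PREPL shares the CAMKMT peak, and its match is printed above, so it is not apart from the 7 genes. A match is a description of letters, not a measured site.

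Of the 11 tied 8-base words, the one in the fewest promoters was AATTACAC, in TAF6, CNPY4 and RIOK2. It was in 0.430% of the other genes with a peak and 0.498% of those without, so by the main rule the leading word was no more common beside ZBTB24 peaks. Among the tied words, 2 contain the 7-base word, and they were counted after the 7-base result was seen. CAGGACCT, in CDC40, TAF6 and CNPY4, was in 6.45% of the other genes with a peak and 1.76% of those without. AGGACCTG, in CDC40, TAF6 and OSTC, was in 7.16% and 1.96%. With 9 bases the single leader was ACCTTCAAG, in TAF6, CNPY4 and OSTC, which does not hold the whole 7-base word. It overlaps that word in part at the match TAF6 and CNPY4 share and at the OSTC match, so it is no separate place.

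**Figure D1:**
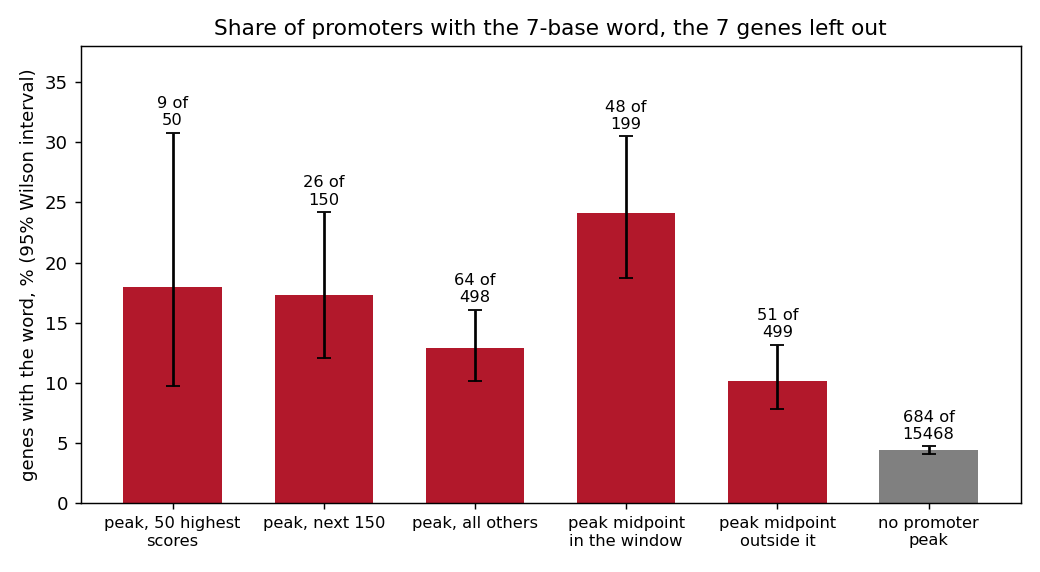
Share of promoters (vertical axis, %) that hold the leading 7-base word, with the 7 genes left out. The first 3 bars split the 698 other genes with a ZBTB24 promoter peak and a sequence by peak score. The next 2 bars split the same genes by whether the peak midpoint lies from 250 bp upstream to 50 bp downstream of the authors' start. The grey bar is genes without a promoter peak, and error bars are 95% Wilson intervals. The bar for midpoints inside that span stands at 24.1%, and the grey bar at 4.42%.

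The peaks that define these genes were among the highest of the list, with 1 exception. Scores are the authors' own, 1 per merged peak, and no source used here says of what kind. They chose the genes, so they are described and not tested. Positions from here on are in hg19, the build named in the submitters' processing notes. RIOK2, an atypical kinase needed to mature the small ribosomal subunit, had the second score of 6173 peaks, 49.98, at chr5:96518890-96519399. CDC40, a splicing factor that acts in the second catalytic step, had 49.7 at chr6:110501258-110501976. TAF6, a histone-fold subunit of the general transcription factor TFIID, and CNPY4, a canopy protein of the endoplasmic reticulum, shared the peak at chr7:99716841-99717317 with 43.1. OSTC, a non-catalytic subunit of the oligosaccharyltransferase that glycosylates new proteins, had 37.1 at chr4:109571250-109571861. CAMKMT, which methylates a lysine of calmodulin, had 36.4 at chr2:44588934-44589851. These 5 peaks ranked from 2 to 16 among all peaks and from 2 to 8 among the 909 peaks at a named start.

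RNF169 stood apart from the other 6 genes. This ubiquitin ligase, which binds ubiquitylated chromatin at DNA double-strand breaks, had a score of 22.8 at chr11:74459456-74459736, rank 157 of all peaks and 30 of those at a named start. Of peaks at a named start that belong to none of the 7 genes, 3 scored above the CAMKMT peak and 24 above the RNF169 peak. The highest of all peaks lay at CDCA7, with a score of 55.4. The name "strongest promoter peaks" therefore holds for 6 of the 7 genes and not for RNF169. The median score was 8.26 over all peaks and 8.46 over those at a named start.

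**Figure D2:**
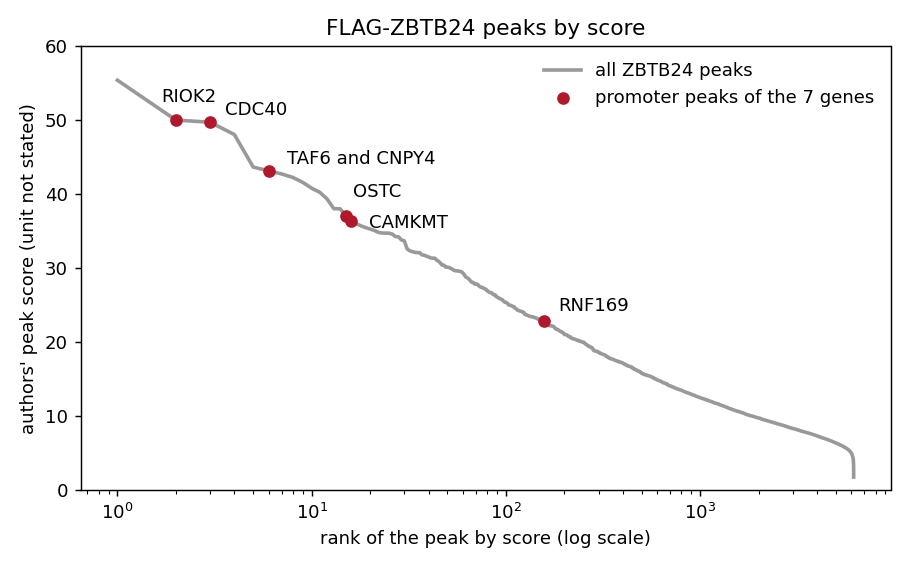
Authors' score of every FLAG-ZBTB24 peak (vertical axis, unit not stated) against its rank (horizontal axis, log scale); the grey line is all 6173 peaks and the red points are the 6 promoter peaks of the 7 genes. The points of RIOK2, CDC40, TAF6 with CNPY4, OSTC and CAMKMT sit at 36.4 or above, and RNF169 sits at 22.8.

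In width the peaks ran from 281 bp at RNF169 to 918 bp at CAMKMT, with 719 bp at CDC40, 612 bp at OSTC, 510 bp at RIOK2 and 477 bp at the start of TAF6 and CNPY4. The median of all ZBTB24 peaks was 191 bp, and 10.2% of all peaks were as wide as the TAF6 peak or wider. Score and width come from the same peaks, so the widths are no separate support.

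The midpoints lay within 349 bp of a start. The CDC40 midpoint was 7 bp upstream, and the peak covered the start, 213 bp of exon sequence and 140 bp of intron. The TAF6 midpoint was 58 bp upstream of the nearest of 3 annotated TAF6 starts and 186 bp upstream of the CNPY4 start. Because a TAF6 transcript begins beyond the CNPY4 start, the whole peak lay inside TAF6, with 181 bp in exons. The OSTC midpoint was 186 bp and the RIOK2 midpoint 139 bp upstream, and both peaks reached over the start into the first exon by 121 bp and 116 bp. The RNF169 peak ended before the start, at position -177 relative to it, with its midpoint 317 bp upstream and no base in the gene. CAMKMT was the only one of the 7 with its midpoint downstream, by 349 bp, and its peak covered 242 bp of exon and 567 bp of intron. Among the other genes with a promoter peak, 40.2% had the midpoint downstream.

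RNF169 and CAMKMT, at 317 and 349 bp, were the farthest from their starts, and the median over all genes with a promoter peak was 279 bp. All 7 genes were thus well inside the 1000 bp limit. Another 42 named genes had a midpoint at 1000 to 1200 bp and none nearer. RNF169 and CAMKMT were also the genes whose midpoints fell outside the span from 250 bp upstream to 50 bp downstream of the authors' start. The sequence windows searched above have that span around the RefSeq start, and CAMKMT had no such window to search.

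Of the 7 genes, 4 had a head-to-head neighbour, counted as a start of another named gene on the other strand within 1000 bp, overlapping starts included. TAF6 and CNPY4 face each other, with starts 244 bp apart at the TAF6 start nearest the peak midpoint. Another TAF6 start lay 216 bp from the CNPY4 start, on its other side, so those transcripts overlap. WASF1, a regulator of actin branching, started 417 bp from CDC40, and its start lay 410 bp from the peak midpoint. PREPL, a prolyl endopeptidase-like gene next to CAMKMT, started 42 bp from it and 391 bp from the midpoint. The peak cannot be assigned to one gene of a pair. OSTC, RNF169 and RIOK2 had no named start on the other strand within that distance. Head-to-head starts were found for 275 of 975 other genes with a promoter peak (28.2%, 95% Wilson interval 25.5% to 31.1%), for 9 of the 50 with the highest scores (18.0%, 9.77% to 30.8%) and for 16.1% of named genes without one (15.7% to 16.6%). The 4 of 7 (57.1%) is a small count, and 2 of the 4 are the same promoter. WASF1 and PREPL, the partners of CDC40 and CAMKMT, are counted among the 975 and among the 50.

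**Figure D3:**
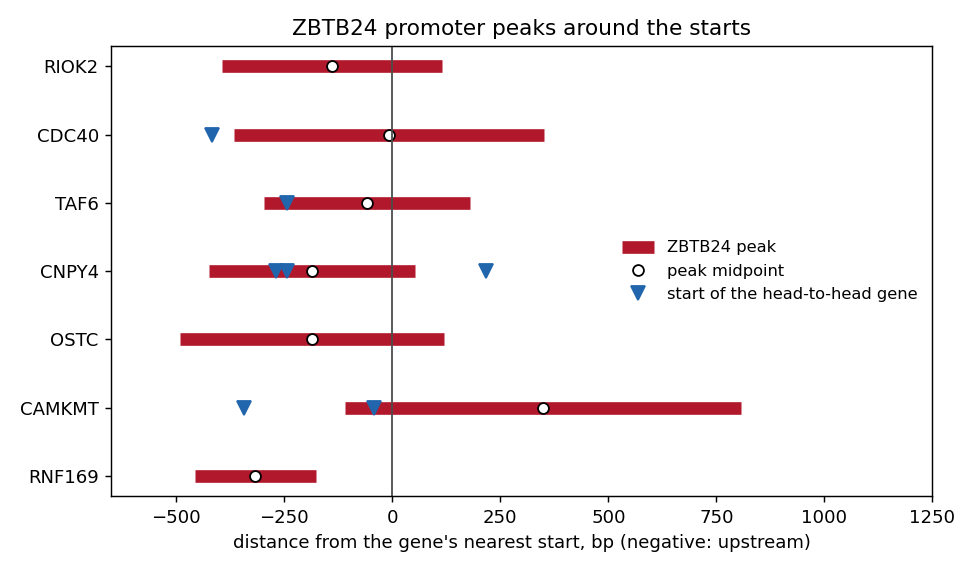
Extent of the ZBTB24 promoter peak of each gene (red bars) relative to the nearest start of that gene (horizontal axis, bp, negative upstream), with peak midpoints as circles and starts of the head-to-head gene as blue triangles. Only the RNF169 peak stops before the start, at -177 bp, and only the CAMKMT midpoint lies downstream, at 349 bp.

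DNMT3B peaks lay in the bodies of 5 of the 7 genes, counted where at least 1 bp of a peak was inside a transcript of the gene and more than 1000 bp from each of its starts. CNPY4 and CAMKMT had none. CDC40 held peaks of 4572 bp and 3727 bp with midpoints 29.8 kb and 44.0 kb from its start (chr6:110529171-110533742 and chr6:110543712-110547438). OSTC held peaks of 1184 bp and 2911 bp at 7.16 kb and 12.5 kb (chr4:109578309-109579492 and chr4:109582774-109585684). RIOK2 held peaks of 1941 bp and 2315 bp at 6.15 kb and 12.1 kb (chr5:96511887-96513827 and chr5:96505748-96508062). Thus these 3 genes carried 2 body peaks each.

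TAF6 held 1 peak of 2117 bp at 10.2 kb (chr7:99706221-99708337) and RNF169 1 peak of 4569 bp at 86.3 kb (chr11:74543953-74548521). Along the genes, midpoints lay from 27.4% of the length in RIOK2 to 92.3% in RNF169. All 8 peaks covered both exon and intron sequence, with exons making up from 1.85% of the second CDC40 peak to 44.5% of the RNF169 peak. The authors' scores of the 8 ran from 2.99 in CDC40 to 3.72 in OSTC, around the median of 3.39 for all 15909 DNMT3B peaks. Of the 5 genes, only OSTC and RIOK2 held a body peak at or above the median DNMT3B score.

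A DNMT3B peak in the body was found in 390 of 975 other genes with a ZBTB24 promoter peak (95% Wilson interval 37.0% to 43.1%) and in 5535 of 25331 genes without one (21.9%, 21.3% to 22.4%). By ZBTB24 score the shares were 42.0% in the 50 highest, 41.3% in the next 150 and 39.6% in all others, with intervals that overlap. The 5 of 7 (71.4%) is a small count of chosen genes, and TAF6 and CNPY4 share a promoter. No comparison with these shares is drawn from it. Gene length differed between these groups, with a median of 31942 bp for genes with a ZBTB24 promoter peak and 17969 bp for all named genes. Within genes of 5 to 20 kb, a body peak was in 31.2% of other genes with a promoter peak and 18.9% of all named genes. Within genes of 20 to 100 kb, these shares were 54.0% and 39.7%. The part of expression level was not tested.

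The 2 genes without a body peak were the shortest and the longest of the 7. CNPY4 spans 5864 bp, and the nearest DNMT3B peak, the one in TAF6, was 8928 bp away. CAMKMT spans 410689 bp, longer than all but 2.38% of named genes, and the nearest DNMT3B peak was 21.9 kb outside it. Among all named genes over 100 kb, 27.9% held a body peak (26.5% to 29.4%), and among other genes with a ZBTB24 promoter peak of that length 37.0% did (30.3% to 44.3%), so a long gene without one is the common case.

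**Figure D4:**
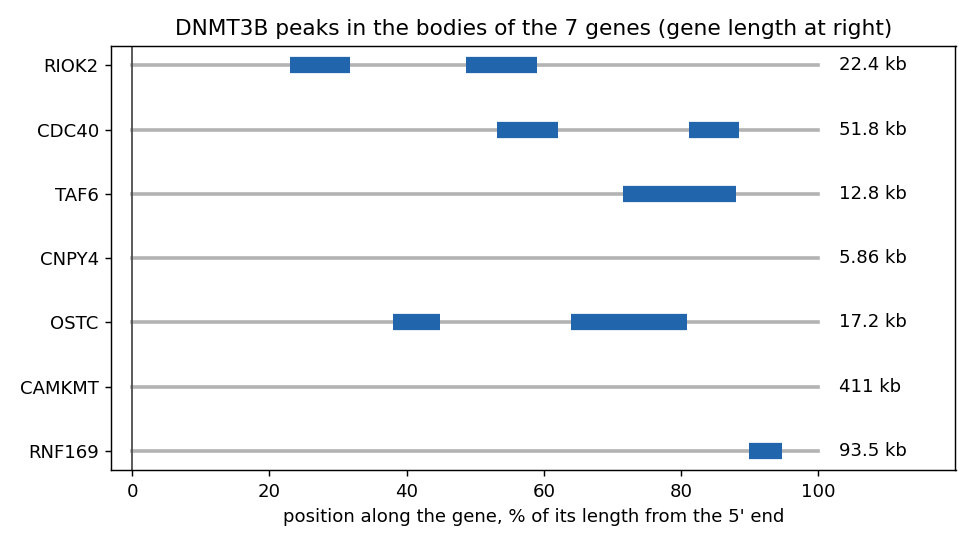
DNMT3B peaks (blue) along each of the 7 genes, drawn as percent of the gene's length from its start (horizontal axis), with the gene length at the right. RIOK2, CDC40 and OSTC carry 2 peaks, TAF6 and RNF169 carry 1, and CNPY4 and CAMKMT carry none, and every midpoint lies at 27.4% of the length or beyond.

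CAMKMT, RNF169, OSTC and CNPY4 were each listed in an expression table of the authors. None of the 7 genes passed the threshold, a q under 0.05 in the authors' deposited table. Each table lists only part of the loci. Those listed are above a log2 fold change of 0.5 in size for the knockdown and FLAG-ZBTB24, and of at least 1.0 for the knockout. The largest p listed in the authors' deposited tables was 0.0549 for the knockdown and 0.839 for FLAG-ZBTB24. The knockdown list may therefore also be cut by p, and shares past a threshold are not comparable between these tables. CDC40, TAF6 and RIOK2, with 3 of the highest promoter peaks, were listed in none of them. For a gene outside a list, no change, a filter and a failed test look the same in these tables.

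After ZBTB24 knockdown, 2 of the 7 genes were listed, in opposite directions, and 0 passed the threshold. Of the other genes with a promoter peak 12.1% were listed, and of named genes without one 7.88%. The 2 of 7 is a small count, and nothing is read from it beside these shares. CAMKMT was at 10.8 FPKM with shZBTB24 and 6.68 FPKM with shNT in the authors' deposited table, with a log2 fold change of 0.69, p = 0.052 and q = 0.366. RNF169 was at 9.01 FPKM with shZBTB24 and 13.4 FPKM with shNT in the authors' deposited table, with a log2 fold change of -0.58, p = 0.0213 and q = 0.208. Of the 1965 listed loci, 22.0% were past it by the same q in the authors' deposited table, and 97.0% had an unadjusted p under 0.05, which RNF169 also met and CAMKMT did not. The RNF169 row covers chr11:74459913-74660232, which runs past the end of the named gene. CDH1, an epithelial marker, was the 1 of 14 marker genes past the threshold, at 23.2 FPKM with shZBTB24 and 46.3 FPKM with shNT in the authors' deposited table with q = 0.00493, and its part in the values of these genes was not tested.

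Both genes that start head to head with a member and are no member were listed for the knockdown too. PREPL was at 14.2 FPKM with shZBTB24 and 9.37 FPKM with shNT in the authors' deposited table, with a log2 fold change of 0.60, p = 0.0114 and q = 0.148, so both genes of the CAMKMT and PREPL promoter had higher values. WASF1 was at 7.26 FPKM with shZBTB24 and 10.5 FPKM with shNT in the authors' deposited table, with a log2 fold change of -0.54, p = 0.0352 and q = 0.287, while CDC40 on the other side of that promoter was not listed. None of these 4 rows passed the threshold, and all 4 were smaller in size than the median listed log2 fold change of 0.772.

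With added FLAG-ZBTB24, OSTC was the 1 gene of the 7 that was listed. It stood at 74.9 FPKM with FLAG-ZBTB24 and 108 FPKM with the tag alone in the authors' deposited table, with a log2 fold change of -0.52, p = 0.205 and q = 0.967. There, 0.57% of 1754 listed loci passed the threshold, and 9.92% had an unadjusted p under 0.05, so nothing is read from 0 of 1. OSTC was not listed for the knockdown. For FLAG-ZBTB24, 11.1% of the other genes with a promoter peak and 7.06% of named genes without one were listed. The markers listed with FLAG-ZBTB24 were CDH1, at 42.5 FPKM with FLAG-ZBTB24 and 29.2 FPKM with the tag alone, and VIM, at 0.716 FPKM with FLAG-ZBTB24 and 0.487 FPKM with the tag alone in the authors' deposited table, and their part in the OSTC value was not tested.

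In the DNMT3B knockout, CNPY4 was the 1 gene of the 7 that was listed, at 4.87 FPKM in the knockout and 1.63 FPKM in wild type in the authors' deposited table, with a log2 fold change of 1.58. With 1 library per group the difference has no replicate check. Of the other genes with a promoter peak 11.1% were listed for the knockout, and of named genes without one 9.0%. Of 2243 loci listed for the knockout, all higher, 0.312% had a q under 0.05 by the authors' deposited table. The CNPY4 row covers chr7:99690351-99723128, which takes in all of TAF6 on the other strand and runs beyond its far end. CNPY4 is one of the 2 genes without a DNMT3B peak in the body. VIM, a mesenchymal gene, was at 629 FPKM in the knockout and 3.80 FPKM in wild type in the authors' deposited table, and CLDN3, an epithelial marker, was at 27.4 FPKM in the knockout and 10.2 FPKM in wild type in the same table. The 4 epithelial markers given above under the label DNMT3BKOshZB were lower than wild type. The part of these markers in the CNPY4 value was not tested. No member was listed under the label DNMT3BKOshZB.

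**Figure D5:**
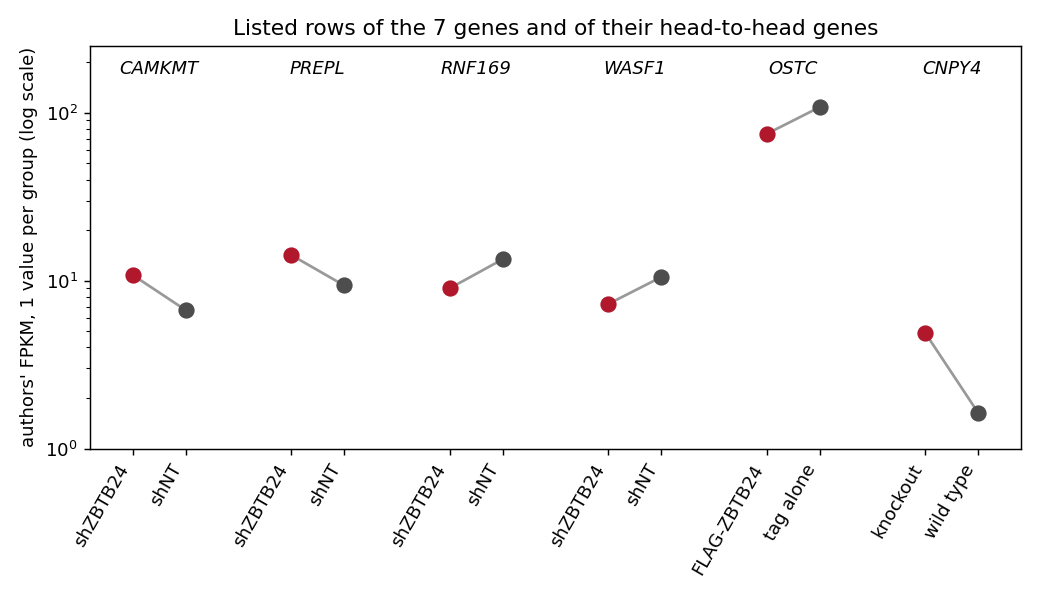
Authors' FPKM (vertical axis, log scale), 1 pooled value per group and no error, for each listed row of the 7 genes and of PREPL and WASF1; red points are shZBTB24, FLAG-ZBTB24 or the DNMT3B knockout, and grey points to their right are shNT, the tag alone or wild type. CAMKMT and PREPL are higher with shZBTB24, RNF169 and WASF1 are lower, and OSTC is at 74.9 FPKM with FLAG-ZBTB24 and 108 FPKM with the tag alone.

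The other genes with a promoter peak were listed for the knockdown in both directions as well. Of 975, 118 were listed (12.1%, 95% Wilson interval 10.2% to 14.3%), against 7.88% of named genes without a promoter peak (7.55% to 8.22%). Of the 50 with the highest scores 12 were listed (24.0%, 14.3% to 37.4%), with 6 higher and 6 lower. The 12 include WASF1 and PREPL, which share the CDC40 and CAMKMT peaks and whose rows are given above. Past the threshold were 3 of the 12, all higher, beside 22.0% of all listed loci. These were IFIH1 (18.7 FPKM with shZBTB24 and 5.13 with shNT), HOXB7 (20.4 FPKM with shZBTB24 and 9.48 with shNT) and SESN1 (9.04 FPKM with shZBTB24 and 4.79 with shNT) in the authors' deposited table, named after their values were seen. Of the next 150 genes, 3 loci higher and 4 lower passed the threshold. The 118 genes made up 116 loci, with 72 higher and 44 lower, and 14 higher and 10 lower passed the threshold. Over all 1965 listed loci, 1081 were higher and 884 lower. The other tables showed a like difference in listing, at 11.1% against 7.06% of genes without a promoter peak for FLAG-ZBTB24 and 7.69% against 4.38% under the label DNMT3BKOshZB. For the knockout, 108 of 975 genes with a peak (11.1%, 9.26% to 13.2%) and 2280 of 25331 without (9.0%, 8.65% to 9.36%) were listed. These intervals overlap only slightly, which does not show that the shares are equal. Named genes include many that may not be expressed in these cells, and that part of the difference in listing was not tested.

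The 7 genes belong to unlike complexes, so their partners were counted from lists of complex and pathway members. Among 16 TFIID subunits, TAF6 and TBP (score 8.10, midpoint 814 bp from a start) had a promoter peak. Among 16 splicing factors of the catalytic steps, 4 did, namely CDC40, PLRG1 (28.7), DHX15 (11.6) and PRPF18 (7.70). RIOK3 (13.0) was the other of 10 late maturation factors of the small ribosomal subunit, CNPY3 (rank 246 of all peaks) the other of 7 canopy and client-folding genes, and VCPKMT (11.6) the other of 7 annotated calmodulin and methyltransferase genes. OSTC was the only one of 12 oligosaccharyltransferase subunits and RNF169 the only one of 11 genes of ubiquitin signalling at double-strand breaks. Across all named genes 3.73% had a promoter peak. Each partner list was built around a gene chosen for its peak, so its count includes that gene by choice and is not comparable with this share. PLRG1, a spliceosome protein, had the highest score among these partners. Of the 8 epithelial markers, KRT19 (7.90) and CLDN3 (10.5) had a promoter peak, and of the 6 markers of other cell types none did.

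In the 7 lists of partners no gene passed the threshold in the 3 tables. The partners below were named after their values were seen, because none met the rule for naming a partner. TFIID had 2 listed subunits for the knockdown, both higher, and 2 with FLAG-ZBTB24, both lower. Only TAF9B was in both lists. The locus that joins TAF9 and AK6 was at 59.8 FPKM with FLAG-ZBTB24 and 87.6 FPKM with the tag alone in the authors' deposited table (q = 0.997). TAF9B, a paralog of TAF9, was at 5.31 FPKM with shZBTB24 and 1.47 FPKM with shNT (log2 fold change 1.85, q = 0.0851), and at 4.33 FPKM with FLAG-ZBTB24 and 9.85 FPKM with the tag alone (log2 fold change -1.18, q = 0.775) in the authors' deposited tables. TAF11 was at 30.0 FPKM with shZBTB24 and 18.4 FPKM with shNT in the authors' deposited table (q = 0.313). BCAS2, a splicing factor, was at 52.4 FPKM with shZBTB24 and 35.9 FPKM with shNT, and at 26.2 FPKM with FLAG-ZBTB24 and 40.6 FPKM with the tag alone in the authors' deposited tables, with q values of 0.210 and 0.921. TAF9B, TAF9, TAF11 and BCAS2 had no ZBTB24 promoter peak. HSPA5, of the canopy and client-folding genes, was at 549 FPKM with shZBTB24 and 838 FPKM with shNT in the authors' deposited table (q = 0.248).

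Partners of OSTC and RNF169 were listed in both directions. For the knockdown, RPN2, a structural subunit of the oligosaccharyltransferase, was at 74.9 FPKM with shZBTB24 and 117 FPKM with shNT (log2 fold change -0.64, q = 0.0809), and OST4 was at 324 FPKM with shZBTB24 and 224 FPKM with shNT (0.53, q = 0.312) in the authors' deposited table. With FLAG-ZBTB24, OSTC and TMEM258 were the oligosaccharyltransferase loci listed, both with the lower value there by the authors' deposited table. Of the break-signalling genes, BRCA1 was at 3.39 FPKM with shZBTB24 and 1.84 FPKM with shNT (q = 0.123), and UBE2N was at 58.9 FPKM with shZBTB24 and 41.6 FPKM with shNT (q = 0.253), while RNF169 had the lower value in the authors' deposited table. In the knockout, without a replicate check, TUSC3, an oligosaccharyltransferase subunit, was at 62.7 FPKM in the knockout and 0.121 FPKM in wild type in the authors' deposited table, with a log2 fold change of 9.02. H2AFX, the histone variant marked at breaks, was at 273 FPKM in the knockout and 129 FPKM in wild type in the authors' deposited table. None of the 10 small-subunit maturation factors was listed for the knockdown, and LTV1 was the 1 listed with FLAG-ZBTB24, at 31.6 FPKM, against 48.4 FPKM with the tag alone in the authors' deposited table (q = 0.929).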

How the data were processed

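ChIP-seq and RNA-seq files of HCT116 lines were used as the authors deposited them. Per the submitters' processing notes, MACS2, HISAT2, Cufflinks and StringTie were used with hg19. No tool version is stated there. The authors deposited 2 merged peak lists with 1 score per peak, whose kind is not stated. Peaks of single libraries or of the tag alone were not analysed here. Their 3 expression tables hold 1 FPKM value per group, a log2 fold change, a test statistic given here as a score, and a p-value and q-value per locus, per the file headers. No sequencing depth is given, so it is unknown.

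The 7 genes, the lists and the searches were chosen with earlier results of these data known. Peaks were joined to starts of the authors' assembled annotation by midpoint within 1000 bp. DNMT3B body peaks needed 1 bp of overlap beyond 1000 bp from each start. Words were counted over both strands in RefSeq promoters (GRCh38.p14), matched by symbol for 16172 genes. Coordinates of the 2 builds were not joined. Shares carry 95% Wilson intervals, and no test across libraries could be run on pooled values. Genes were named where they are one of the 7, start within 1000 bp of such a peak midpoint or head to head with one of the 7, have a promoter peak above the highest of the 7, or are listed partners with a promoter peak or a q under 0.05. Others are said to be named after their values were seen. 1 item is not reported here. The main word search used 8 bases, and 7 and 9 were listed alternatives. Position counts were tested on simulated data. Python 3.11.15, pandas 2.3.3 and scipy 1.17.1 were used. Alternatives were other windows, overlaps, thresholds, word lengths and a pseudocount of 1 FPKM.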

Additional observations from a re-analysis of the deposited data

How the results depend on the processing

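Counts of the 7 genes held under most settings. All 7 kept a promoter peak at 500 and 2000 bp, and 5 did at 250 bp, without RNF169 and CAMKMT. The count with a DNMT3B body peak was 5 by midpoint or by 50% of the peak, and 2 with only DNMT3B peaks at or above the median score. With an unadjusted p under 0.05 in place of q, 1 gene, RNF169, was called in the authors' deposited table for the knockdown. That limit was met by 97.0% of all loci listed there, so the call says little beyond being listed. For FLAG-ZBTB24 the count was 0, beside 9.92% of all listed loci. With q under 0.1 both counts stayed at 0. The leading shared word was in 5 of 6 genes with 7 bases, against 3 with 8 or 9. Counting only the first promoter of each gene, chosen after seeing the data, gave 11.5% of other genes with a peak and 3.32% of genes without for the 7-base word. A pseudocount of 1 FPKM moved the CNPY4 log2 fold change to 1.16 and turned no direction. No paired analysis was possible because the tables hold 1 pooled value per group, and for the same reason no library could be left out.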
